A study of Mus musculus with 16 samples.

Results

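The comparison is between macrophages given TMP195 before TNFα and macrophages given TPCA-1 before TNFα. It uses 8 of the 16 libraries of the series, 4 per treatment, which were chosen by their treatment labels alone. All cells were bone marrow-derived macrophages from C57BL/6J mice with the Apoe-null genotype B6.129P2-Apoetm1Unc/J, which lack apolipoprotein E, so every group carries that deletion. Marrow cells were matured with L929-conditioned medium, replated on day 7, and kept first without that medium and then without serum before treatment. TMP195 was given at 5 µM and TPCA-1 at 500 nM, each for 1 h before TNFα at 50 ng/ml for 24 h. The other 8 libraries, 4 with TNFα alone and 4 with DMSO, are used below only to place levels and entered no test. The labels do not say whether replicates were separate mice or separate cultures, so p-values measure only the spread between these libraries, which may be technical.

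TNFα binds its receptor on macrophages and activates the IκB kinase (IKK) complex, which marks the inhibitor IκB for degradation and lets NF-κB dimers enter the nucleus. TPCA-1 inhibits IKK2, the catalytic subunit encoded by Ikbkb. TMP195 occupies the deacetylase domain of the class IIa histone deacetylases (encoded by Hdac4, Hdac5, Hdac7 and Hdac9), which bind MEF2 transcription factors. A further pathway matters for what follows: type I interferon acts through the receptor subunits Ifnar1 and Ifnar2 and the kinases Jak1 and Tyk2 on a complex of transcription factors that includes STAT2 and IRF9 and binds the interferon-stimulated response element. Macrophages in culture keep many genes of that pathway expressed at a low, tonic interferon signal. The 2 compounds are unrelated in structure and their doses differ, so the comparison is of the treatments as given.

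Counted reads were 18.6 to 22.9 M (M, 1000000 reads) in 7 of the 8 libraries and 7.49 M in TPCA-1+TNFα replicate 2. That library had 44.0% unmapped reads, against 4.47% to 5.76% in the other 7, and the largest deviation from its group mean. Results are therefore given with it and, for some of the genes whose values move, without it. Ribosomal protein genes took 3.87% to 4.28% of counts with TMP195+TNFα and 4.61% to 5.83% with TPCA-1+TNFα, and the part of this in the results was not tested. The first principal component of log2 expression held 59.0% of the variance and had all 4 TMP195+TNFα libraries on one side and all 4 TPCA-1+TNFα libraries on the other. The 9 macrophage markers checked, among them Lyz2, Adgre1 and Csf1r, were at 10.8 CPM (counted reads of a gene per 1000000 counted reads of its library) or more in every library.

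Between the 2 treatments, 2392 of 12066 genes tested (19.8%) passed an adjusted p of 0.05 in edgeR's quasi-likelihood test. Of these, 1163 (9.64% of genes tested) were higher with TMP195+TNFα and 1229 (10.2%) were lower. Counts of called genes in the lists below are to be read beside these shares. A change of at least 2-fold was reached by 947 of the called genes, 522 of them higher and 425 lower with TMP195+TNFα. In 2871 genes (23.8%) the 4 values of one treatment lay wholly above the 4 of the other, and 2054 of the called genes were among them. Without TPCA-1+TNFα replicate 2, 2285 of 12226 genes (18.7%) were called, 2058 of them in both fits, and no gene called with all 8 libraries changed sign. Leaving out TMP195+TNFα replicate 3 or TPCA-1+TNFα replicate 4 lowered the count most, to 1569 and 1587. Changes below are log2 fold changes ± SE of TMP195+TNFα minus TPCA-1+TNFα, positive where TMP195+TNFα was higher, from 4 libraries against 4. Levels are CPM in replicates 1 to 4 in that order.

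**Figure D1:**
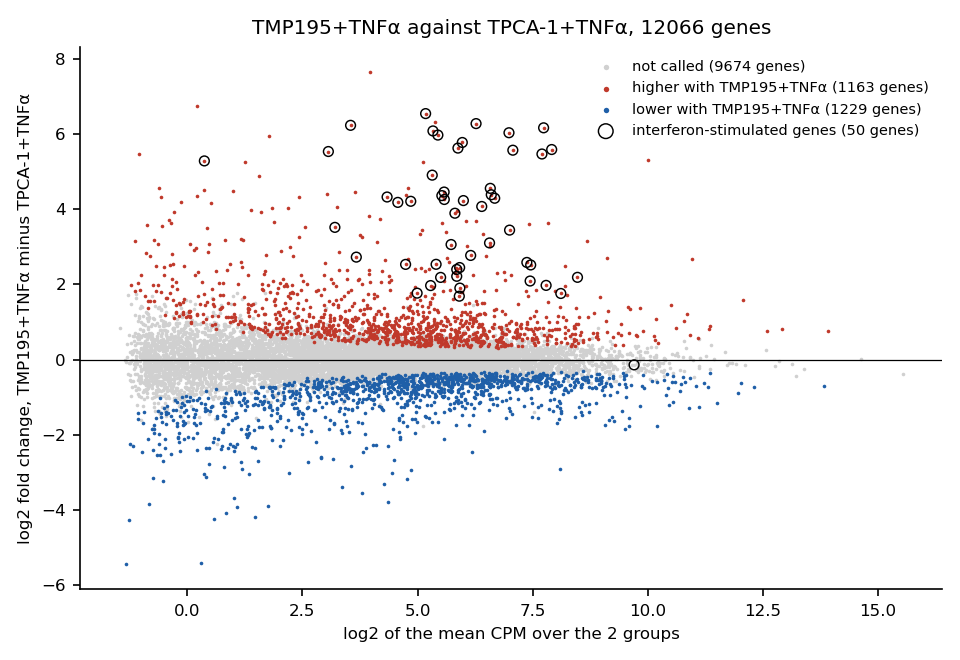
Each point is 1 of the 12066 genes tested, by its mean level over both groups (log2 CPM, horizontal) and its log2 fold change (vertical, TMP195+TNFα minus TPCA-1+TNFα). Red points are the 1163 genes higher and blue points the 1229 genes lower with TMP195+TNFα, and black rings mark the 50 interferon-stimulated genes tested, of which 49 lie among the red points.

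Interferon-stimulated genes separated the treatments furthest. Of the 50 listed genes that could be tested (of 51), 49 were higher with TMP195+TNFα, and Samhd1 was not called (-0.14 ± 0.15, adjusted p = 0.541). Their median log2 fold change was 4.12, against -0.01 over all genes tested. The count of called genes was 49 in each of the 16 alternative fits, and the median ranged from 3.79 to 4.17 over them. Oas3, an oligoadenylate synthetase that senses double-stranded RNA, was at 290.5, 222, 237 and 248 CPM with TMP195+TNFα and at 3.05, 4.41, 4.36 and 3.31 CPM with TPCA-1+TNFα. The lowest TMP195+TNFα library was thus far above the highest TPCA-1+TNFα library, a difference of 6.03 ± 0.18 (adjusted p = 1.01e-08, 65.3-fold). Its relative Oasl2 was at 515, 394, 418 and 356 CPM against 5.24, 4.94, 7.68 and 4.87 CPM (6.16 ± 0.21, adjusted p = 2.68e-08). Irf7, the transcription factor that amplifies interferon production, was at 366, 207, 276 and 202 CPM against 4.43, 6.68, 5.87 and 5.12 CPM (5.56 ± 0.25, adjusted p = 2.24e-07). The ubiquitin-like modifier Isg15 was at 119, 69.8, 96.5 and 77.8 CPM against 4.76, 5.74, 3.67 and 4.73 CPM (4.26 ± 0.22, adjusted p = 1.01e-06). Its protease Usp18, a negative regulator of interferon signalling, was at 161, 108, 119.7 and 96.2 CPM against 8.004, 4.27, 6.02 and 6.43 CPM (4.23 ± 0.23). None of these genes overlapped between the treatments.

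Several other interferon-stimulated genes, most of them named for the size of their change, encode antiviral effectors. Rsad2 (viperin, which makes a chain-terminating nucleotide) was at 797, 458, 414 and 218 CPM with TMP195+TNFα and 9.53, 12.8, 7.39 and 9.50 CPM with TPCA-1+TNFα (5.58 ± 0.39, adjusted p = 4.84e-06). Its genomic neighbour Cmpk2, a mitochondrial nucleotide kinase, differed by 5.97 ± 0.45. Zbp1, a sensor of Z-form nucleic acids that can start necroptosis, was at 157, 87.5, 118 and 97.9 CPM against 1.14, 2.80, 1.81 and 3.61 CPM (5.62 ± 0.34, adjusted p = 1.88e-06). The tetratricopeptide genes Ifit2 (5.77 ± 0.55) and Ifit3 (6.27 ± 0.42) were both higher. Xaf1, a pro-apoptotic factor, was at 192, 163, 153 and 127 CPM against 8.67, 9.08, 8.32 and 10.8 CPM (4.07 ± 0.17). Within the TMP195+TNFα group the genes moved together. Replicate 1 was the highest of the 4 libraries in 43 of the 49 called genes (87.8%), and replicate 4 the lowest in 33. Over all genes tested those shares were 18.3% and 32.3%, and over all genes called higher 35.9% and 47.0%. Replicate 1 was also the highest library with TNFα alone and with DMSO for Oas3, Irf7 and Rsad2, but not with TNFα alone for Isg15. Even the lowest TMP195+TNFα library lay above every TPCA-1+TNFα library for the genes given here.

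Many of these genes lie side by side in families, and close relatives share reads. On chromosome 1 (173350879 to 174031810), 11 of the 12 Ifi200-family genes tested, including Ifi213 (7.65 ± 0.56), Ifi206 (6.31 ± 0.42) and Ifi205 (6.08 ± 0.44), were higher with TMP195+TNFα. Ifi213 rested on 1 to 4 reads in each TPCA-1+TNFα library, so its fold depends on few reads. All 4 Ifit genes tested on chromosome 19 (34550694 to 34650009) and all 6 Oas genes on chromosome 5 (120730333 to 120907521) were higher. So were all 7 Slfn genes tested on chromosome 11 (82951349 to 83215154). No gene tested in these 4 spans was lower. Values of single members of these families, of the Gbp genes and of the H2 genes are less certain, because only uniquely mapped reads were counted.

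**Figure D2:**
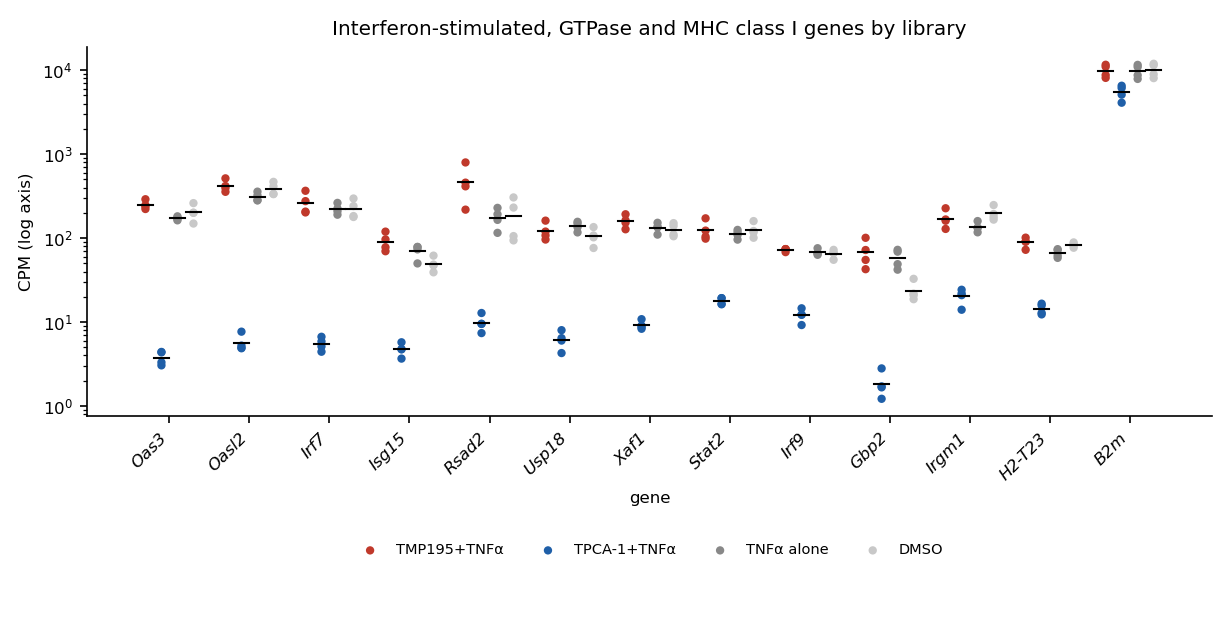
CPM on a log axis for 13 genes in the 4 TMP195+TNFα, 4 TPCA-1+TNFα, 4 TNFα and 4 DMSO libraries, with each point 1 library and each bar the group mean. The TPCA-1+TNFα points lie below all TMP195+TNFα points in every gene shown, and the TNFα and DMSO points lie nearer to TMP195+TNFα on average.

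Guanylate-binding proteins and immunity-related GTPases, which attack the vacuoles of intracellular pathogens, followed the same pattern. Of 15 listed genes tested, 14 were higher with TMP195+TNFα (median 3.82), the count in each alternative fit was also 14, and Gbp8 was not called (0.62 ± 0.38, adjusted p = 0.268). Gbp2 was at 101, 54.98, 72.2 and 42.6 CPM against 1.67, 2.80, 1.71 and 1.22 CPM (5.25 ± 0.34, adjusted p = 2.66e-06). Irgm1, which regulates the effector GTPases, was at 227, 161, 167 and 129 CPM against 24.3, 14.02, 21.9 and 20.9 CPM (3.03 ± 0.22, adjusted p = 5.25e-06). Igtp (2.42 ± 0.17), Irgm2 (2.42 ± 0.19), Ifi47 (3.43 ± 0.26) and Gbp3 (4.46 ± 0.36) did not overlap between the treatments either.

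Among 22 genes of MHC class I antigen presentation, 17 were higher and none was lower with TMP195+TNFα (median 1.18). The non-classical class I gene H2-T23, a ligand of natural killer cell receptors, was at 91.1, 72.5, 101 and 90.5 CPM against 12.3, 16.6, 15.8 and 12.9 CPM (2.599 ± 0.15, adjusted p = 1.88e-06). B2m, the light chain that all class I molecules share, was at 11618, 11009.7, 8766 and 8107 CPM against 6534, 4103, 5119 and 6139.7 CPM (0.81 ± 0.18, adjusted p = 0.00899). The classical heavy chains were not called: H2-D1 differed by 0.19 ± 0.18 (adjusted p = 0.488) and H2-K1 by 0.49 ± 0.21 (adjusted p = 0.115). Without TPCA-1+TNFα replicate 2, H2-K1 was called (0.71, adjusted p = 0.017).

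Among the components that carry the interferon signal, transcription factor genes differed between the treatments and most of the receptor and kinase genes did not pass the test. Stat2 was at 172, 98.5, 123 and 104 CPM with TMP195+TNFα and 16.4, 16.3, 19.3 and 19.3 CPM with TPCA-1+TNFα (2.77 ± 0.20, adjusted p = 4.84e-06). Its DNA-binding partner Irf9 was at 74.1, 73.8, 68.1 and 73.8 CPM against 12.2, 9.21, 14.6 and 12.3 CPM (2.53 ± 0.14, adjusted p = 1.42e-06). Both genes are themselves interferon-stimulated. Upstream, Ifnar1 (0.27 ± 0.14, adjusted p = 0.197), Jak1 (0.25 ± 0.10, adjusted p = 0.0901) and Tyk2 (-0.16 ± 0.21, adjusted p = 0.628) were not called. Ifnar2 was higher by 0.54 ± 0.13 (adjusted p = 0.0149), a call lost when TMP195+TNFα replicate 3 or TPCA-1+TNFα replicate 4 was left out (adjusted p up to 0.0674). The ligand gene Ifnb1 had 0 to 3 reads per TMP195+TNFα library and 0 to 2 per TPCA-1+TNFα library, too few to test.

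Set beside the untested groups, it was the TPCA-1+TNFα level of these genes that stood apart. Oas3 was at 163 to 182 CPM in the 4 libraries with TNFα alone and at 149 to 261 CPM in the 4 with DMSO, both far above the 3.05 to 4.41 CPM with TPCA-1+TNFα. Stat2 was at 95.95 to 125 CPM with TNFα alone and at 101 to 159.6 CPM with DMSO. On mean log2(CPM + 0.5), all 49 called interferon-stimulated genes lay nearer to TMP195+TNFα than to TPCA-1+TNFα in the TNFα libraries, and 48 of 49 did so in the DMSO libraries. Over all 1163 genes higher with TMP195+TNFα, 799 (68.7%) lay nearer to TMP195+TNFα in the TNFα libraries and 603 (51.9%) in the DMSO libraries. Of the 1229 lower genes, 899 (73.2%) and 598 (48.7%) did so. These are placements with no test.

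Promoters of several of these genes carry the letters that the STAT and IRF factors read. The stretches below lie before the start of transcription in RefSeq (GRCm38.p6) and are written 5′ to 3′ on the strand of the gene. They were picked from named genes that hold a match, so they do not show how common a match is. Ifit2 and Xaf1, also higher with TMP195+TNFα, had no match to the core given next in the 250 bases before the start. Capitals mark a match to the response element core GAAANNGAA, or to its reverse complement where the match lies on the opposite strand.
Oas3 (chr5:120777690-120777758, - strand): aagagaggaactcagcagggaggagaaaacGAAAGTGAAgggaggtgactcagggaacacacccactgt
Isg15 (chr4:156200846-156200914, - strand): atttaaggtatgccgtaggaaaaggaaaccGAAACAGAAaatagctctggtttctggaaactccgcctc
Rsad2 (chr12:26456533-26456601, - strand): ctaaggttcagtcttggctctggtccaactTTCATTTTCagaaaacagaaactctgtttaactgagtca
Gbp2 (chr3:142620575-142620643, + strand): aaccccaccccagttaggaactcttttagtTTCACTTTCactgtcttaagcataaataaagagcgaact
Stat2 (chr10:128270248-128270315, + strand): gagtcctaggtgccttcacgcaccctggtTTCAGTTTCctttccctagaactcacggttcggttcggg
Ifit3 (chr19:34583397-34583465, + strand): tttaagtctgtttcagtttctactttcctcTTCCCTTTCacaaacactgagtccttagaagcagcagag
Ifit3b (chr19:34607793-34607861, + strand): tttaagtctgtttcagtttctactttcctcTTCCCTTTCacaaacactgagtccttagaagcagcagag
The Ifit3 and Ifit3b stretches of 69 bases differ at 0 positions, so the pair cannot be told apart by it. A match to such letters is a description and not a shown binding site.

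Promoter windows from 250 bases before to 50 bases after the start were found for 8819 of 10843 protein-coding genes tested, including 877 of the 1083 protein-coding genes called higher and 933 of the 1157 called lower with TMP195+TNFα. The core GAAANNGAA, on either strand, was in 7.28% of all these promoters, in 13.2% of those of genes called higher and in 5.47% of those of genes called lower. With only the 250 bases before the start the shares were 6.36%, 11.2% and 4.82%. Among the MHC class I genes, 5 of 18 promoters held it. The interferon-stimulated list matched promoters for 39 of 49 protein-coding genes tested. That is just under the 80% set as the least for reading a share, so none is given. A κB motif (GGG, any 3 bases, TTCC) was in 6.36% of all promoters, 7.18% of those called higher and 5.25% of those called lower. The AP-1 motif TGANTCA was in 4.97%, 8.44% and 5.68%. The same promoter can hold more than 1 of these motifs.

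**Figure D3:**
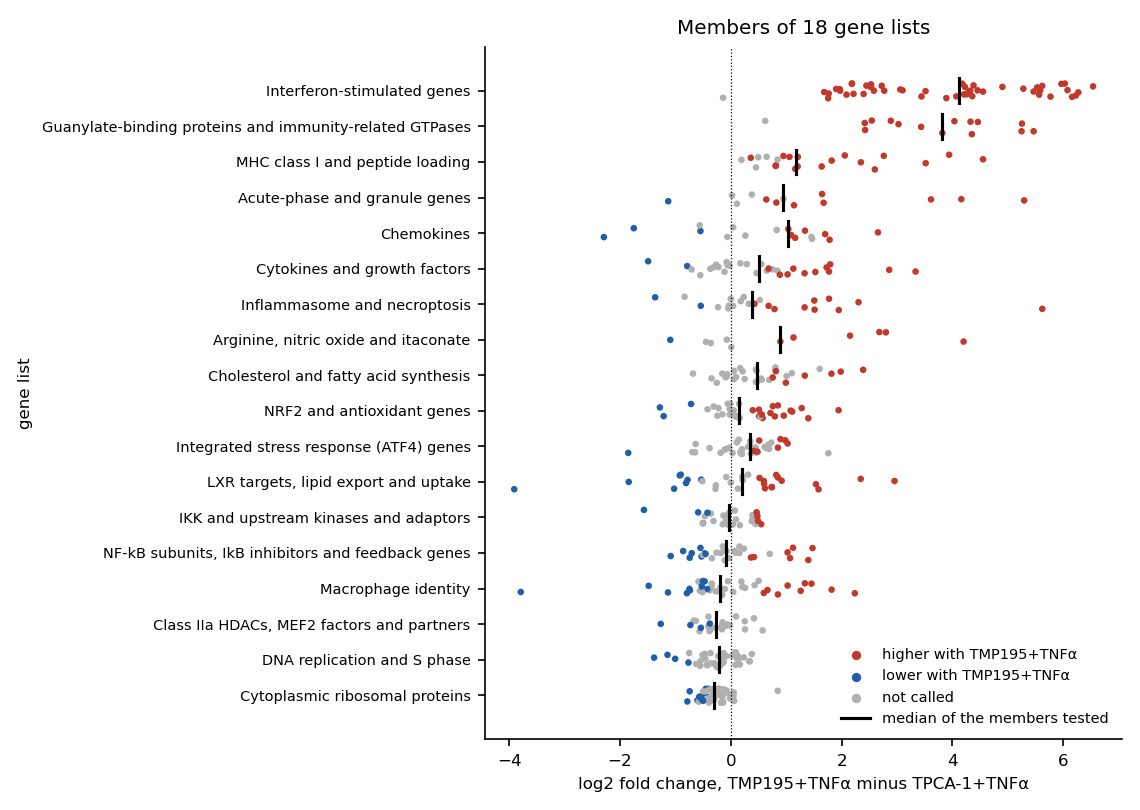
Log2 fold changes (horizontal, TMP195+TNFα minus TPCA-1+TNFα) of the tested members of 18 gene lists (vertical). Red points passed the adjusted p of 0.05 upward, blue points downward and grey points not, and the black bar is the median, highest at 4.12 for interferon-stimulated genes and 3.82 for the GTPases.

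Among cytokine genes, calls higher with TMP195+TNFα outnumbered calls lower. Of 30 listed cytokine and growth factor genes tested (of 41), 11 were higher, 2 were lower and 17 were not called (median 0.51). Il1a, which encodes the alarmin interleukin-1α, was at 57.7, 82.5, 55.7 and 46.4 CPM with TMP195+TNFα and 6.003, 7.08, 6.75 and 3.85 CPM with TPCA-1+TNFα (3.33 ± 0.23, adjusted p = 4.40e-06). Csf1, the growth factor that macrophages depend on, was at 18.8, 13.6, 14.7 and 21.95 CPM against 2.10, 3.47, 2.69 and 1.41 CPM (2.86 ± 0.26, adjusted p = 3.00e-05). Tnf itself was at 422, 468, 549.6 and 565 CPM against 193, 216, 295 and 188 CPM (1.13 ± 0.16, adjusted p = 5.72e-04), with no overlap. The interleukin-1 receptor antagonist Il1rn was higher than with TPCA-1+TNFα by 1.73 ± 0.31 (adjusted p = 0.00249) and the interleukin-18 trap Il18bp by 1.52 ± 0.16 (adjusted p = 9.51e-05), beside Il18 by 1.33 ± 0.25 (adjusted p = 0.00345). Il18 was at 8.51 to 14.2 CPM with TMP195+TNFα, 11.6 to 15.7 CPM with TNFα alone and 12.4 to 17.7 CPM with DMSO, and at 2.94 to 6.41 CPM with TPCA-1+TNFα. In the libraries with TNFα alone Tnf was at 471 to 712 CPM and Il1a at 26.8 to 55.8 CPM, and with DMSO at 221 to 317 CPM and 2.08 to 8.66 CPM. Il1b was low in all libraries, at 6.08, 5.34, 11 and 6.68 CPM against 1.67, 2.003, 4.11 and 0.487 CPM (1.77 ± 0.47, adjusted p = 0.0206), and its call was lost when TMP195+TNFα replicate 3 was left out (adjusted p up to 0.0725). Vegfa, an angiogenic factor, was higher by 0.68 ± 0.13 (adjusted p = 0.00399).

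Il6 went the other way. It was at 1.29, 0.291, 1.004 and 0.873 CPM with TMP195+TNFα and 3.29, 0.935, 2.74 and 2.14 CPM with TPCA-1+TNFα, a low level, and TPCA-1+TNFα replicate 2 lay within the range of the other treatment (-1.49 ± 0.44, adjusted p = 0.0337). The call was lost when TMP195+TNFα replicate 2, 3 or 4 or TPCA-1+TNFα replicate 1, 3 or 4 was left out (adjusted p up to 0.079). The other gene lower in the list was Ebi3 (-0.79 ± 0.19, adjusted p = 0.0128), which encodes a subunit of interleukins 27 and 35. Of these 2 lower genes, 1 was called without TMP195+TNFα replicate 2 or 3, or TPCA-1+TNFα replicate 3 or 4.

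Chemokines split. Of 17 genes tested (of 24), 7 were higher and 3 lower with TMP195+TNFα (median 1.04). The monocyte attractants Ccl7 (57.2, 23.05, 42.1 and 13.5 CPM against 7.004, 0.801, 5.38 and 6.73 CPM, 2.66 ± 0.51, adjusted p = 0.00395) and Ccl2 (67.6, 24.7, 58.4 and 25.4 CPM against 17.2, 7.08, 17.2 and 10.6 CPM, 1.70 ± 0.38, adjusted p = 0.00889) were higher. In the DMSO libraries Ccl2 was at 122 to 165 CPM, above all 8 inhibitor libraries. Cxcl10, which attracts T cells and is interferon-induced, was at 192, 55.1, 85.9 and 48.3 CPM against 33.6, 17.8, 20.3 and 36.5 CPM (1.78 ± 0.42, adjusted p = 0.012). Pf4 was higher by 1.09 ± 0.23 (adjusted p = 0.00646) and Ccl8 by 1.16 ± 0.27 (adjusted p = 0.0106). The neutrophil attractant Cxcl2 was higher by 1.04 ± 0.25 (adjusted p = 0.0138) although its groups overlapped. Cxcl1 (1.45 ± 0.54, adjusted p = 0.0834) and Cxcl3 (0.83 ± 0.35, adjusted p = 0.125) did not pass.

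Lower with TMP195+TNFα were Cx3cl1, Ccl5 and Ccl4, chemokines that attract monocytes and T cells. The fractalkine gene Cx3cl1 was at 0.108, 0.776, 0.687 and 0.655 CPM against 1.14, 4.27, 2.59 and 3.17 CPM (-2.29 ± 0.49, adjusted p = 0.00699). It had 2 to 16 reads per TMP195+TNFα library, a low level. Ccl5 was at 44.8, 19.4, 35.05 and 29.4 CPM against 55.3, 138, 36.6 and 196 CPM (-1.75 ± 0.46, adjusted p = 0.0203), with TPCA-1+TNFα replicates 2 and 4 high and replicates 1 and 3 near the TMP195+TNFα range. That call was lost when TMP195+TNFα replicate 2 or TPCA-1+TNFα replicate 4 was left out (adjusted p up to 0.0748). Ccl4 (-0.55 ± 0.14, adjusted p = 0.0202) lost its call when TMP195+TNFα replicate 1 or 2 or TPCA-1+TNFα replicate 3 or 4 was left out (adjusted p up to 0.0715). With either TMP195+TNFα replicate 2 or TPCA-1+TNFα replicate 4 left out, 1 chemokine was called lower.

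Receptors for these signals were higher in 9 and lower in 3 of 27 tested genes (of 33; median 0.20). The receptor for colony-stimulating factor 1, Csf1r, was at 939, 921, 1203 and 1430.3 CPM against 365, 431, 630.4 and 306 CPM (1.34 ± 0.22, adjusted p = 0.00151). The shared β-chain of the receptors for interleukin-3, interleukin-5 and GM-CSF, Csf2rb, differed by 1.31 ± 0.17 (adjusted p = 3.16e-04) and its mouse relative Csf2rb2 by 1.46 ± 0.18 (adjusted p = 2.48e-04). Ccrl2, a chemerin-binding receptor, was at 50.9, 36.1, 47.7 and 31.1 CPM against 12.01, 13.5, 10.1 and 16.4 CPM (1.64 ± 0.20). Fpr2, a receptor for formylated peptides, differed by 1.29 ± 0.19. Lower with TMP195+TNFα was Il6ra (-0.82 ± 0.12, adjusted p = 7.42e-04). Tnfrsf1a, the main TNFα receptor, was not called (-0.01 ± 0.14, adjusted p = 0.954; 95% interval -0.29 to 0.26).

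**Figure D4:**
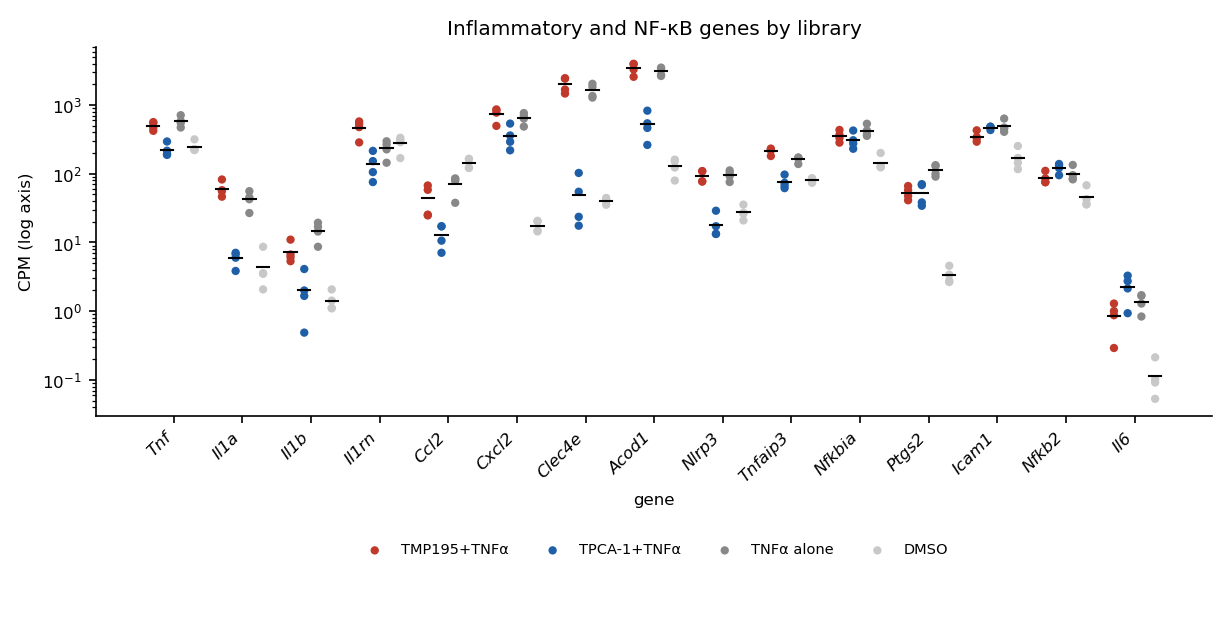
CPM on a log axis for 15 inflammatory and NF-κB genes in the 4 libraries of each group, with each point 1 library and each bar the group mean. Il1a, Clec4e, Acod1, Nlrp3 and Tnfaip3 separate the red from the blue points, whereas Nfkbia and Ptgs2 overlap.

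The IKK complex and NF-κB genes did not share a direction. Among 28 genes for IKK subunits, upstream kinases and adaptors, 5 were higher and 4 lower with TMP195+TNFα (median -0.04). The called share was 32.1%, against 19.8% over all genes tested. Ikbkb, whose product TPCA-1 inhibits, was at 70.3, 69.7, 74.96 and 79.5 CPM against 64.2, 68.5, 72.1 and 67.8 CPM (0.07 ± 0.10, adjusted p = 0.649; 95% interval -0.13 to 0.27). Chuk, which encodes IKK1, differed by 0.39 ± 0.15 (adjusted p = 0.0884). The scaffold gene Ikbkg was higher by 0.48 ± 0.13 (adjusted p = 0.0275), a call lost when TMP195+TNFα replicate 1, 2 or 3 or TPCA-1+TNFα replicate 3 or 4 was left out (adjusted p up to 0.0968). Map3k14, the kinase of the non-canonical pathway, was lower, at 11.3, 14.7, 15.5 and 21.3 CPM against 28.3, 63.6, 35.8 and 54.5 CPM (-1.57 ± 0.25, adjusted p = 0.00141). Ripk2, the adaptor kinase of NOD receptors, was higher by 0.55 ± 0.11 (adjusted p = 0.00596). Leaving out TMP195+TNFα replicate 1, 2 or 3, or TPCA-1+TNFα replicate 3 or 4, reduced the higher calls to between 1 and 3. The lower calls fell to 1 or 2 without TMP195+TNFα replicate 1, 2 or 3 or TPCA-1+TNFα replicate 4.

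Of 30 NF-κB subunit, IκB and feedback genes, 7 were higher, 8 lower and 15 not called (median -0.09). Tnfaip3, which encodes the feedback inhibitor A20, was at 181, 233, 219.5 and 224 CPM against 67.5, 73.8, 97.3 and 61.8 CPM (1.47 ± 0.15, adjusted p = 5.99e-05). Sod2, the mitochondrial superoxide dismutase, was at 1153, 1175, 1152 and 952 CPM against 476, 402, 515 and 245 CPM (1.40 ± 0.21, adjusted p = 7.71e-04). Nfkbie, an IκB, was higher by 1.07 ± 0.20 (adjusted p = 0.00349) and Irf1 by 1.02 ± 0.17 (adjusted p = 0.00146). With TNFα alone Tnfaip3 was at 139 to 172 CPM and with DMSO at 74.3 to 86.4 CPM, so the TPCA-1+TNFα libraries lay around the DMSO range. Sod2 was at 1133 to 1466 CPM with TNFα alone and 188 to 242 CPM with DMSO, below all TPCA-1+TNFα libraries. Irf1 is also a known target of interferon.

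The best-known IκB gene, Nfkbia, was not called: it was at 284, 331, 369 and 434 CPM against 231, 426, 308 and 275 CPM (0.15 ± 0.18, adjusted p = 0.582; 95% interval -0.20 to 0.51). Rela (-0.18 ± 0.15), Nfkb1 (0.24 ± 0.12), Relb (-0.11 ± 0.24) and Rel (-0.08 ± 0.19) were not called either (adjusted p = 0.413, 0.202, 0.781 and 0.811). Lower with TMP195+TNFα were the nuclear IκB genes Nfkbid (19.7, 18.2, 22.1 and 26.7 CPM against 38.4, 48.1, 52.9 and 39.9 CPM, -1.09 ± 0.15, adjusted p = 5.72e-04) and Nfkbiz (-0.71 ± 0.16, adjusted p = 0.0082). The survival gene Bcl2a1d, a member of a family with shared sequence, was also lower (-0.86 ± 0.18, adjusted p = 0.00551). Icam1, the leukocyte adhesion molecule, was at 293, 329, 342 and 429 CPM against 433, 483, 481 and 484 CPM (-0.47 ± 0.12, adjusted p = 0.0181). That call was lost when TMP195+TNFα replicate 1, 2 or 3 or TPCA-1+TNFα replicate 4 was left out (adjusted p up to 0.0714), and with all 16 libraries in 1 model. Nfkb2 (-0.53 ± 0.15, adjusted p = 0.0303) lost its call when TMP195+TNFα replicate 1, 2 or 3 or TPCA-1+TNFα replicate 2, 3 or 4 was left out (adjusted p up to 0.0984), and in the model of 16 libraries. Without TMP195+TNFα replicate 1, 2 or 3 or TPCA-1+TNFα replicate 4 the 8 lower calls became 3, and without TPCA-1+TNFα replicate 3 they became 5.

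A κB match before the start is shown for Tnfaip3 and Cxcl2, a feedback gene and a chemokine that were both called higher with TMP195+TNFα. Such matches also lie before the start of genes called lower, Il6, Nfkb2, Marco and Gpx1 among them. Capitals mark the match to GGG, any 3 bases and TTCC, or its reverse complement.
Tnfaip3 (chr10:19015411-19015452, - strand): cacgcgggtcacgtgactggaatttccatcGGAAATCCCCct
Cxcl2 (chr5:90903791-90903860, + strand): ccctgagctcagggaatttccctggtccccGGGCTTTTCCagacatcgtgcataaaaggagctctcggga
In the NF-κB list, 7 of 26 promoters matched (26.9%) held the motif, against 6.36% of all protein-coding genes tested. The list was chosen by pathway and has 7 genes higher, 8 lower and 15 not called. Its share therefore does not bear on the difference between the treatments.

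Genes of innate defence and inflammatory metabolism gave some of the widest gaps outside the interferon lists. Clec4e, which encodes the mycobacterial glycolipid receptor Mincle, was at 2422, 1473, 2462 and 1683 CPM with TMP195+TNFα and 54.8, 23.6, 103 and 17.5 CPM with TPCA-1+TNFα (5.30 ± 0.53, adjusted p = 5.85e-05). With DMSO it was at 35.4 to 44.5 CPM and with TNFα alone at 1285 to 2041 CPM, so TPCA-1+TNFα lay around the DMSO level. Saa3, an acute-phase protein gene, was at 356, 103, 513 and 290.0 CPM against 20.8, 15.1, 48.3 and 15.9 CPM (3.61 ± 0.50, adjusted p = 5.39e-04). With TNFα alone Saa3 was at 404 to 1813 CPM (mean 1246 CPM, against 316 CPM with TMP195+TNFα). With DMSO it was at 8.96 to 17.2 CPM. The complement gene C3 was at 975, 567, 795 and 719.5 CPM against 241, 229.8, 361 and 103 CPM (1.67 ± 0.31, adjusted p = 0.00318). In all, 8 of 13 acute-phase and granule genes tested (of 20) were higher and 1, the scavenger receptor Marco (-1.13 ± 0.22, adjusted p = 0.00423), was lower. Acod1, the enzyme that makes itaconate, was at 3299, 2579, 3934 and 3994 CPM against 465, 543, 828 and 263 CPM (2.68 ± 0.30, adjusted p = 1.22e-04). It was at 2652 to 3511 CPM with TNFα alone and 79.7 to 161 CPM with DMSO, so TPCA-1+TNFα lay above the DMSO range. Nos2, the inducible nitric oxide synthase, had 19 to 45 reads per TMP195+TNFα library and 0 to 6 per TPCA-1+TNFα library, a low level in both. Of 11 genes of arginine, nitric oxide and itaconate metabolism tested, 6 were higher and 1, the polyamine acetyltransferase Sat1 (-1.09 ± 0.14, adjusted p = 2.92e-04), was lower.

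The inflammasome sensor Nlrp3 was at 77.9, 76.9, 109 and 109 CPM against 17.2, 13.4, 28.97 and 13.3 CPM (2.31 ± 0.25, adjusted p = 1.01e-04). Casp4, the caspase that binds cytosolic lipopolysaccharide, was at 121, 108, 103 and 82.4 CPM against 40.8, 30.6, 39.4 and 30.3 CPM (1.51 ± 0.16), and the necroptosis executor Mlkl differed by 1.51 ± 0.16. Of 22 inflammasome and necroptosis genes, 10 were higher and 2 lower with TMP195+TNFα, and 1 was lower without TMP195+TNFα replicate 1 or 3 or TPCA-1+TNFα replicate 4. Txnip, the thioredoxin-binding protein, was the more strongly lower of the 2, at 159, 136, 153 and 187 CPM against 399, 312, 399 and 481 CPM (-1.37 ± 0.15, adjusted p = 1.05e-04).

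Eicosanoid genes were called in both directions. Ptgs2, the inducible cyclooxygenase, was at 41.1, 57.6, 66.3 and 47.4 CPM with TMP195+TNFα and 68.5, 34.2, 70.7 and 38.3 CPM with TPCA-1+TNFα (-0.04 ± 0.25, adjusted p = 0.92; 95% interval -0.52 to 0.44). The downstream synthase Ptges was at 22.3, 19.9, 21.3 and 23.5 CPM against 4.57, 4.67, 6.90 and 3.02 CPM (2.14 ± 0.22, adjusted p = 6.65e-05). Pla2g4a, the phospholipase that frees arachidonic acid, was higher by 0.81 ± 0.19 (adjusted p = 0.0107), and the prostaglandin E2 receptors Ptger4 and Ptger2 by 0.92 ± 0.17 and 0.66 ± 0.14 (adjusted p = 0.0034 and 0.00545). Alox5, the first enzyme of leukotriene synthesis, was lower, at 0.484, 0.582, 0.317 and 0.480 CPM against 2.24, 1.20, 2.69 and 3.02 CPM (-2.36 ± 0.34, adjusted p = 6.17e-04). It had 6 to 12 reads per TMP195+TNFα library, a low level. Of 16 eicosanoid genes tested, 5 were higher and 2 lower, and 1 lower call was lost when any of TMP195+TNFα replicates 2, 3 and 4 or TPCA-1+TNFα replicates 2 and 4 was left out.

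The class IIa deacetylase genes, whose products TMP195 binds, did not differ past the threshold. Hdac4 was at 10.3 to 13.5 CPM with TMP195+TNFα and 11.1 to 14.1 CPM with TPCA-1+TNFα (-0.15 ± 0.15, adjusted p = 0.516). Hdac5 differed by -0.56 ± 0.19 (adjusted p = 0.0535), Hdac7 by 0.57 ± 0.24 (adjusted p = 0.112) and Hdac9 by -0.36 ± 0.22 (adjusted p = 0.274). Of the 25 genes tested for these deacetylases, MEF2 factors and their partners, none was higher and 4 were lower with TMP195+TNFα (median -0.27), against 19.8% called over all genes. The 4 were the salt-inducible kinases Sik1 (11.1, 10.6, 12.4 and 9.82 CPM against 26.2, 21.6, 30.4 and 24.4 CPM, -1.26 ± 0.15, adjusted p = 1.74e-04) and Sik2 (-0.54 ± 0.11, adjusted p = 0.00669), which phosphorylate class IIa deacetylases, with Mef2d (-0.73 ± 0.16, adjusted p = 0.00772) and the corepressor gene Tbl1x (-0.38 ± 0.11, adjusted p = 0.0278). Tbl1x lost its call when TMP195+TNFα replicate 2 or 3 or TPCA-1+TNFα replicate 4 was left out (adjusted p up to 0.0931), and with no filter on low counts. Mean Sik1 was 12.3 CPM with TNFα alone, 10.99 CPM with TMP195+TNFα and 25.6 CPM with TPCA-1+TNFα. In that order the means were 26.8, 24.6 and 34.8 CPM for Sik2 and 82.8, 82.2 and 133 CPM for Mef2d. For these genes TNFα alone lay nearer to TMP195+TNFα. Tbl1x, at 139, 117 and 149 CPM, lay nearer to TPCA-1+TNFα. Means with DMSO were 21.2 (Sik1), 26.2 (Sik2), 108 (Mef2d) and 160 CPM (Tbl1x). These placements were not tested. Leaving out TPCA-1+TNFα replicate 1 or TMP195+TNFα replicate 4 raised the lower calls to 8 and 7. Neither compound acts through the transcript of its target, so these values do not measure inhibition.

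Lipid handling genes moved in both directions. Of 31 genes tested for lipid export, uptake and storage, 13 were higher and 8 lower with TMP195+TNFα. The called share was 67.7%, against 19.8% over all genes tested. Gpnmb, a lysosomal membrane glycoprotein of lipid-laden macrophages, was at 6786, 6769.7, 6313 and 5845 CPM against 2166, 2079, 2789.7 and 1325 CPM (1.58 ± 0.20, adjusted p = 2.61e-04). Fabp4, a fatty acid carrier, was at 70.8, 61.8, 73.00 and 35.05 CPM against 13.8, 8.15, 14.9 and 8.77 CPM (2.34 ± 0.27, adjusted p = 1.58e-04). Plin2, which coats lipid droplets, was lower, at 249.8, 543, 264 and 242 CPM against 978, 1503, 891 and 1154 CPM (-1.84 ± 0.27, adjusted p = 6.75e-04), and TMP195+TNFα replicate 2 was the high library of its group. Angptl4, an inhibitor of lipoprotein lipase, was at 0.376, 0.291, 0.0529 and 0.306 CPM against 3.29, 6.01, 2.59 and 3.997 CPM (-3.91 ± 0.43, adjusted p = 1.13e-04), and Pparg, a nuclear receptor for fatty acids, differed by -0.90 ± 0.15 (adjusted p = 0.00134). Angptl4 rested on 1 to 7 reads in each TMP195+TNFα library, so its fold depends on few reads. The lower calls became 5 without TMP195+TNFα replicate 1. The cholesterol exporter Abca1 was higher by 0.62 ± 0.15 (adjusted p = 0.0121). Abcg1 was lower (-0.78 ± 0.24, adjusted p = 0.0432), a call lost when TMP195+TNFα replicate 1, 3 or 4 or TPCA-1+TNFα replicate 2 or 4 was left out (adjusted p up to 0.117). Of 32 cholesterol and fatty acid synthesis genes, 7 were higher and none lower, a called share of 21.9% against 19.8% over all genes tested. Among them was the desaturase Scd2 (141, 69.6, 118 and 214 CPM against 27.7, 43.7, 48.5 and 30.6 CPM, 1.82 ± 0.30, adjusted p = 0.00157). With TMP195+TNFα replicate 2 left out, 12 were higher. Apoe, deleted in these mice, was at 0.108 to 0.485 CPM and 0.0487 to 0.381 CPM, too low to test.

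The list of NRF2 and antioxidant genes had 15 higher and 3 lower of 34 tested. The called share was 52.9%, against 19.8% over all genes tested. Gclc, the catalytic subunit of the first enzyme of glutathione synthesis, was at 758, 934, 791 and 745 CPM against 359.7, 277, 445 and 211 CPM (1.28 ± 0.20, adjusted p = 0.0012), and Nqo1 differed by 1.11 ± 0.25 (adjusted p = 0.0097). Gpx1, a glutathione peroxidase, was lower, at 213, 211, 271 and 277 CPM against 481, 612, 595 and 504 CPM (-1.21 ± 0.13, adjusted p = 1.21e-04). A single gene of the list was called lower without TMP195+TNFα replicate 1, 2 or 3. Of 35 ATF4-linked stress genes 7 were higher and 1 lower, a called share of 22.9% that is near the 19.8% over all genes tested. Mthfd2 (mitochondrial folate enzyme, 0.98 ± 0.21, adjusted p = 0.00706) and Psat1 (serine synthesis, 0.90 ± 0.20, adjusted p = 0.00939) were higher. Ddit4, an inhibitor of mTORC1, was lower, at 0.753, 1.12, 0.687 and 1.66 CPM against 2.57, 6.14, 2.45 and 4.34 CPM (-1.85 ± 0.37, adjusted p = 0.00489). Without TMP195+TNFα replicate 2 or 3 the higher calls of that list became 4 and 3, and the lower calls 2 or 3 without TPCA-1+TNFα replicate 1 or 3 or TMP195+TNFα replicate 4.

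Growth genes differed in few places. None of 40 DNA replication genes was higher and 4 were lower with TMP195+TNFα. That share of 10% is near the 10.2% of all genes tested that were lower. The lower calls became 2 without TMP195+TNFα replicate 1, 3 or 4 or TPCA-1+TNFα replicate 3. The thymidylate synthase gene Tyms led the 4 lower genes (2.80, 3.59, 3.33 and 3.10 CPM against 7.004, 6.68, 6.17 and 7.70 CPM, -1.14 ± 0.17, adjusted p = 8.16e-04). The proliferation marker Mki67 was low and not called (0.21 ± 0.29, adjusted p = 0.644). Cdkn1c, which encodes the CDK inhibitor p57, was at 38.2, 34.8, 30.8 and 35.01 CPM with TMP195+TNFα and 5.86, 15.2, 7.05 and 4.73 CPM with TPCA-1+TNFα (2.11 ± 0.30, adjusted p = 5.72e-04). In the libraries with TNFα alone it was at 2.82 to 5.49 CPM and with DMSO at 2.34 to 6.47 CPM, so here TMP195+TNFα was the treatment that stood apart. Cd200, whose product restrains macrophages through CD200R, shared that pattern: it was at 28.1, 27.5, 29.1 and 12.96 CPM against 3.91, 1.74, 2.79 and 0.877 CPM (3.31 ± 0.40, adjusted p = 2.30e-04), with 2.39 to 7.44 CPM after TNFα alone. Btg2, an antiproliferative gene, was lower (-1.05 ± 0.16, adjusted p = 0.00106).

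Macrophage identity genes were higher in 9 and lower in 11 of 38. Fcgr1, the high-affinity IgG receptor and also interferon-induced, was at 176, 107, 129 and 78.1 CPM against 30.4, 18.03, 29.2 and 23.2 CPM (2.24 ± 0.26, adjusted p = 1.51e-04). Aif1, an actin-binding protein, was lower, at 201, 248, 198 and 174 CPM against 507, 716, 380.0 and 631 CPM (-1.48 ± 0.19, adjusted p = 3.16e-04), as was Adgre1, which encodes F4/80, at 4258, 3168, 3984 and 4068 CPM against 6581, 5178, 6164 and 7246 CPM (-0.74 ± 0.15, adjusted p = 0.00485). Lyz2 was not called (-0.11 ± 0.25, adjusted p = 0.794). In bulk RNA, fewer cells of a type and less RNA per cell cannot be told apart. The lower calls of the list became 7 without TMP195+TNFα replicate 3.

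The genes lowest with TMP195+TNFα relative to TPCA-1+TNFα were of mixed function. Spib, an ETS transcription factor of B cells and plasmacytoid dendritic cells, was at 1.18, 4.08, 2.91 and 2.97 CPM against 21.6, 49.9, 26.9 and 53.2 CPM (-3.79 ± 0.37, adjusted p = 5.20e-05). Lad1, a basement membrane filament protein gene, was at 0.860, 5.19, 1.59 and 1.05 CPM against 11.1, 62.5, 15.9 and 12.3 CPM (-3.55 ± 0.69, adjusted p = 0.00395). TPCA-1+TNFα replicate 2 was the highest library by far, and without it the difference was -2.63 (adjusted p = 0.0044). The lectin genes Cd209g (-3.38 ± 0.60, without that library -2.84) and Cd209f (-2.94 ± 0.59, without it -2.46) and the kinase gene Srpk3 (-2.65 ± 0.47, without it -2.07) had the same high library. Replicate 2 was also the highest library of the TMP195+TNFα, TNFα and DMSO groups for Lad1, Cd209g and Cd209f, and of the first 2 of these for Srpk3. For Cd209f it was at 14.5 CPM with TMP195+TNFα, where the other 3 libraries were at 1.94 to 6.29 CPM. Sema7a, a membrane-anchored semaphorin, was at 2.58, 7.47, 4.65 and 4.67 CPM against 21.7, 60.4, 30.6 and 41.1 CPM (-3.01 ± 0.35, adjusted p = 1.48e-04). Map1a, a microtubule-associated protein gene, was at 1.18, 2.67, 5.34 and 5.19 CPM against 19.1, 52.5, 32.9 and 34.9 CPM (-3.30 ± 0.41, adjusted p = 2.67e-04). With TNFα alone Spib was at 1.94 to 6.54 CPM and Sema7a at 2.96 to 10.3 CPM. With DMSO they were at 3.02 to 7.33 CPM and 2.97 to 7.69 CPM. For both genes TPCA-1+TNFα was thus the treatment that stood apart.

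Other genes of this group did not rest on that library. Kctd12b, a potassium channel tetramerisation domain gene, was at 3.87, 3.25, 2.85 and 1.96 CPM against 28.5, 18.2, 17.6 and 18.3 CPM (-2.84 ± 0.25, adjusted p = 2.10e-05). It was at 1.15 to 2.53 CPM with TNFα alone but at 11.3 to 21.1 CPM with DMSO. Klf11, a Krüppel-like factor, was at 0.968, 2.33, 1.85 and 1.44 CPM against 11.2, 10.7, 7.59 and 13.2 CPM (-2.73 ± 0.27, adjusted p = 5.21e-05), and Plppr4 was at 5.54, 10.3, 4.07 and 5.06 CPM against 38.1, 49.3, 33.3 and 33.9 CPM (-2.66 ± 0.26, adjusted p = 5.26e-05). The procollagen protease Bmp1 was at 4.30, 6.94, 5.76 and 6.81 CPM against 22.9, 31.4, 26.5 and 32.2 CPM (-2.28 ± 0.18, adjusted p = 8.58e-06). Bmp1 was at 11.3 to 20.1 CPM with TNFα alone, between the inhibitor groups, and at 0.955 to 2.34 CPM with DMSO. Icosl, the ligand of the T cell costimulator ICOS, was at 9.14, 15.04, 13.2 and 14.4 CPM against 44.5, 59.6, 43.2 and 46.2 CPM (-1.94 ± 0.17, adjusted p = 1.97e-05). Rn7sk, the small nuclear RNA that holds the elongation factor P-TEFb inactive, was at 5.70, 4.56, 6.82 and 5.19 CPM against 47.6, 53.9, 36.1 and 59.2 CPM (-3.18 ± 0.19, adjusted p = 1.88e-06). With TNFα alone Rn7sk was at 3.80 to 7.76 CPM and with DMSO at 5.22 to 14.2 CPM, so TPCA-1+TNFα stood apart. Rn7sk has many related copies in the genome, and its capture depends on how the library was made, so its level is less certain. The predicted gene Gm26917 was also lower (-2.91 ± 0.29). Among the 425 genes lower at least 2-fold, TPCA-1+TNFα replicate 2 was the highest library of its group in 215 (50.6%), against 34.2% over all genes tested. TMP195+TNFα replicate 2 was the highest of its group in 169 of them (39.8%), against 30.9%. The reason was not tested.

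**Figure D5:**
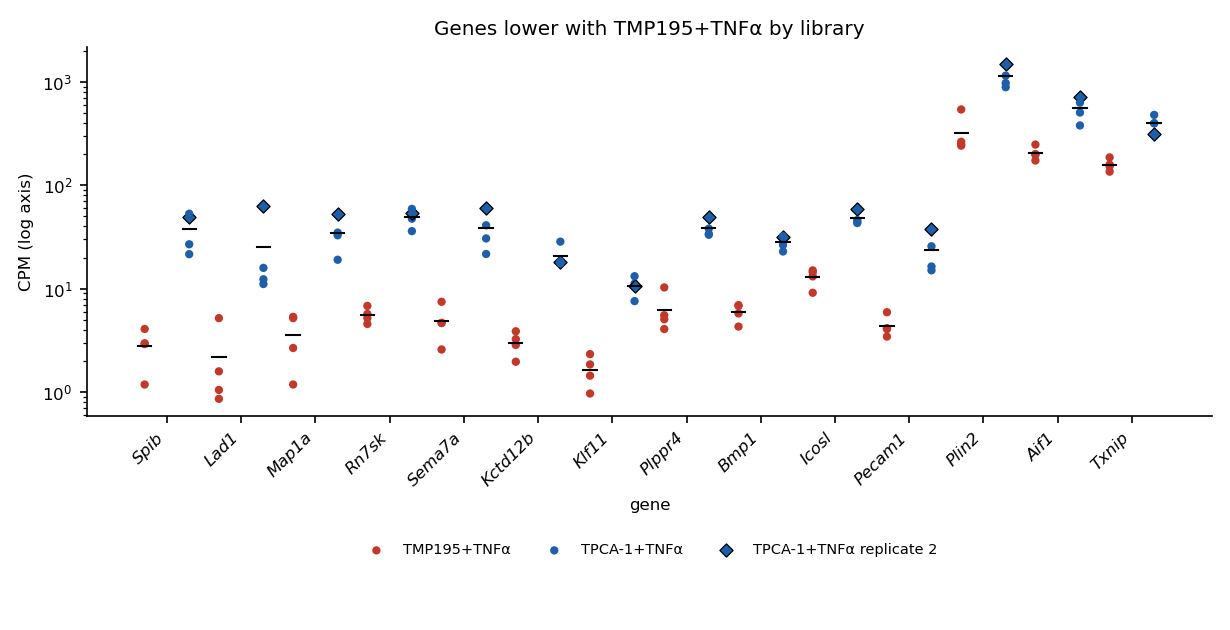
CPM on a log axis for 14 genes lower with TMP195+TNFα, with each point 1 library, each bar the group mean and diamonds for TPCA-1+TNFα replicate 2. The diamond is far above the other TPCA-1+TNFα points for Lad1, and lies among or near them for Rn7sk, Klf11 and Kctd12b.

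Markers of other cell types moved with the treatments in places. Of 13 lymphocyte markers, Cd79b (9.52, 14.9, 13.9 and 11.96 CPM against 26.6, 47.7, 43.5 and 48.7 CPM, -1.76 ± 0.20) and Ighm (7.04, 11.8, 9.41 and 10.3 CPM against 26.5, 40.2, 27.6 and 62.04 CPM, -2.05 ± 0.27) could be tested and both were lower with TMP195+TNFα. Of the list, 2 markers (Gzmb is one) were at 0 in all 8 libraries and no untested one exceeded 0.534 CPM. The list summed to 16.7 to 27.0 CPM with TMP195+TNFα and 53.3 to 111 CPM with TPCA-1+TNFα. Pecam1, an endothelial and leukocyte adhesion gene, was lower (-2.46 ± 0.30, adjusted p = 2.15e-04), and Fabp4, also on the list of 14 stromal and endothelial markers, was higher (2.34 ± 0.27, adjusted p = 1.58e-04), while 11 of the list were too low to test and 1 was not called. That list summed to 53.7 to 90.9 CPM with TMP195+TNFα and 40.5 to 63.0 CPM with TPCA-1+TNFα. Of 11 dendritic cell markers 3 could be tested, and the list summed to 289 to 407 CPM with TMP195+TNFα and 78.0 to 123 CPM with TPCA-1+TNFα, with Bst2 (1.97 ± 0.16), which interferon induces, higher and Batf3 (-1.43 ± 0.21) lower. Siglech and Cd209a were at 0 in all 8 libraries. Of 12 neutrophil markers 5, S100a9 and Ly6g among them, were at 0 in all 8 libraries, and of the 2 tested 1, Csf3r, the receptor for granulocyte colony-stimulating factor, was higher (0.95 ± 0.18, adjusted p = 0.00378). The list summed to 84.8 to 115 CPM with TMP195+TNFα and 51.7 to 78.7 CPM with TPCA-1+TNFα. The 9 markers of L929-type fibroblasts summed to 0.262 to 0.832 CPM. Of 50 ribosomal protein genes 11 were lower with TMP195+TNFα (median -0.30), a called share of 22% against 19.8% over all genes tested, and 2 to 4 were when TMP195+TNFα replicate 1, 2 or 3 or TPCA-1+TNFα replicate 4 was left out. No mitochondrially encoded transcript was called. The part of these differences in the other results was not tested.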

How the data were processed

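RNA from bone marrow-derived macrophages was sequenced in 16 libraries, of which 8 entered the comparison. The authors deposited raw read counts per gene for each library, made with STAR 2.6.1d (builds mm10 and GRCm38 are both named), per the submitters' processing notes, and the annotation release was not given in the sources used here. Of 3 count columns, the one for the strand opposite to the read was used, since the other strand held 3.19% to 3.72% of the stranded counts. Lines that name no gene were left out of library sizes, and unmapped reads were 4.47% to 44.0% of reads. Of 54838 gene IDs, 54809 matched GENCODE M21 names.

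Genes passing filterByExpr in the 8 libraries were fitted in edgeR 4.0.16 (R 4.3.3) with TMM factors and the quasi-likelihood F test, 4 libraries against 4, with Benjamini-Hochberg adjustment over 12066 genes. SE is the unshrunk log2 coefficient divided by the square root of F, and 95% intervals use it. Alternatives were DESeq2 1.42.0, limma 3.58.1 voom with sample quality weights, RLE size factors, no filter, counts without strand, all 16 libraries, a replicate block and each library left out. A floor of 3 counts was 0.131 to 0.401 CPM and covers counting error only.

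The members and gene lists were chosen with earlier results of these data known. Named genes are the 12 largest changes in each direction (at least 5 CPM, no overlap), up to 6 per main list and 3 per other list by adjusted p, the most abundant member of marker lists, and a fixed set of pathway genes. Genes outside that rule, chosen after their values were seen, are Abca1, Abcg1, Adgre1, Aif1, B2m, Bcl2a1d, Ccl4, Ccl5, Cxcl2, Cxcl3, Ebi3, Gbp8, Gm26917, H2-D1, H2-K1, Ifnar1, Ifnar2, Ifnb1, Ighm, Ikbkg, Irf9, Jak1, Lyz2, Mki67, Nfkb1, Nfkb2, Nfkbiz, Nlrp3, Nos2, Nqo1, Pecam1, Rel, Rela, Relb, Samhd1, Tnfrsf1a, Txnip, Tyk2 and Usp18, with the marker genes given only as listed at 0. Promoters came from RefSeq (GRCm38.p6). Values of some genes are not reported here.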

Additional observations from a re-analysis of the deposited data

Results flagged for a closer look

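TPCA-1+TNFα replicate 2 stood far from the other 3 libraries of its group in sequencing yield. It had 7.489 M (M, 1000000 reads) counted reads against 20.43 to 20.99 M, 44.02% unmapped reads against 4.884% to 5.756%, and 6.694% multimapped reads against 11.09% to 11.78%. Among the genes named, a single library lay far from the other 3 of its group in the cases below. In all, 334 groups of 4 values were tested for such a library and 26 had one, where chance gives about 1 in 20.

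TMP195+TNFα replicate 2 was the high library for Lad1 (5.19 CPM, others 0.860 to 1.59) and Plin2 (543 CPM, others 242 to 264). It was the low library for Vegfa (25.6 CPM, others 29.4 to 29.7). TMP195+TNFα replicate 3 was the high library for Ptger4 (32.4 CPM, others 28.4 to 28.4). It was the low library for Irf9 (68.1 CPM, others 73.8 to 74.1) and Nqo1 (42.1 CPM, others 51.7 to 53.5). TMP195+TNFα replicate 4 was the high library for Itgal (372 CPM, others 268 to 279), Mthfd2 (125 CPM, others 86.5 to 91.4) and Ebi3 (154 CPM, others 88.4 to 98.4). It was the low library for Sod2 (952 CPM, others 1152 to 1175), Cd200 (12.96 CPM, others 27.5 to 29.1) and Sat1 (149 CPM, others 181 to 187). TPCA-1+TNFα replicate 1 was the high library for Kctd12b (28.5 CPM, others 17.6 to 18.3). It was the low library for Csf3r (27.92 CPM, others 36.7 to 37.8), Il6ra (27.01 CPM, others 30.4 to 31.1) and Icam1 (433 CPM, others 481 to 484). TPCA-1+TNFα replicate 2 was the high library for Lad1 (62.5 CPM, others 11.1 to 15.9). TPCA-1+TNFα replicate 3 was the high library for Oasl2 (7.68 CPM, others 4.87 to 5.24), Saa3 (48.4 CPM, others 15.1 to 20.8) and Dusp6 (9.45 CPM, others 5.07 to 5.48). TPCA-1+TNFα replicate 4 was the low library for Cxcl1 (6.09 CPM, others 47.1 to 55.1). For Ifnb1 (0.0979 CPM) and Nos2 (0.294 CPM), TPCA-1+TNFα replicate 3 was the only library of its group with a read.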

How the results depend on the processing

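In the 16 alternatives no gene that was called and is named in the text changed direction. With limma-voom and sample quality weights the count of called genes rose from 2392 to 3756, 1886 higher and 1870 lower with TMP195+TNFα. Leaving out 1 library at a time gave 1569 to 3010 called genes, and 777 to 1541 lower ones. DESeq2 called 2996, the model of all 16 libraries 3247, no filter on low counts 2628, RLE size factors 2395 and counts without regard to strand 2333. Of 237 named genes tested, 237 kept their side of the threshold with RLE size factors, 235 with DESeq2 and 210 without TMP195+TNFα replicate 3, where 27 calls were lost. Counts of called list members moved by more than 1.5 times in several lists, among them the class IIa deacetylase list (4 lower, 8 with DESeq2, 9 in the model of 16 libraries and 11 with voom weights), the ribosomal proteins (11 lower, 22 with DESeq2), the cholesterol list (7 higher, 15 with no filter) and the IKK list (4 lower, 2 with no filter). The cause was not tested. Whether replicate numbers pair the samples is not stated in the labels and was not tested. Same-numbered libraries correlated in their deviations at 0.53, -0.03, 0.29 and 0.09, and pairs of unlike number at -0.57 to 0.39. TMP195+TNFα replicates 1 and 3 correlated best with their own number, and replicates 2 and 4 with another. Lad1, Cd209g and Cd209f were highest in replicate 2 of every group. The replicate block gave 2607 called genes, or 3156 without TPCA-1+TNFα replicate 2, and 233 of the 237 named genes kept their side of the threshold with it. The low counted reads of TPCA-1+TNFα replicate 2 limit what it can show of low genes: 3 counts were 0.401 CPM there.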

Other observations

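Other gene groups divided between the treatments by member. Over all genes tested, 19.8% were called, 9.64% higher and 10.2% lower with TMP195+TNFα. Of 24 Toll-like receptor and pattern sensor genes, 7 were higher and 4 lower with TMP195+TNFα, a called share of 45.8%. The cytosolic DNA sensor Cgas was at 14.7, 15.4, 14.7 and 11.8 CPM with TMP195+TNFα and 4.34, 6.41, 6.12 and 3.66 CPM with TPCA-1+TNFα (1.45 ± 0.20, adjusted p = 5.49e-04), and the peptidoglycan sensor Nod2 differed by 1.18 ± 0.19 (adjusted p = 0.00138). The endosomal DNA receptor Tlr9 went the other way, at 13.8, 11.3, 13.2 and 16.5 CPM against 25.2, 41.9, 30.4 and 50.1 CPM (-1.46 ± 0.21, adjusted p = 6.76e-04). The list of MAP kinase phosphatases and related inhibitors had 5 genes higher and 3 lower, a called share of 34.8%. Dusp6, which inactivates ERK, was at 18.2, 14.4, 18.6 and 19.3 CPM against 5.48, 5.34, 9.44 and 5.07 CPM (1.43 ± 0.21, adjusted p = 8.63e-04), whereas Dusp1, which acts on p38 and JNK, was lower (-0.80 ± 0.17, adjusted p = 0.00746). Without TMP195+TNFα replicate 3 the higher calls became 3, and without TPCA-1+TNFα replicate 4 the lower calls became 1. Immediate-early factors were more often lower (5 of 22) than higher (2), a called share of 31.8%. With TPCA-1+TNFα replicate 1 left out, 9 were lower. Fos was at 23.5, 26.8, 29.6 and 15.9 CPM against 44.3, 54.9, 58.3 and 59.4 CPM (-1.21 ± 0.19, adjusted p = 0.00106).

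Surface and lysosomal genes also differed. Cd83, a marker of activated antigen-presenting cells, was at 11.5, 14.4, 12.3 and 12.00 CPM with TMP195+TNFα and 26.9, 50.5, 19.5 and 57.2 CPM with TPCA-1+TNFα (-1.65 ± 0.29, adjusted p = 0.00245). The integrin gene Itgal was lower (-1.15 ± 0.14, adjusted p = 1.98e-04). Of 36 adhesion, matrix and protease genes 8 were higher and 7 lower, a called share of 41.7% against 19.8% over all genes tested. Without TPCA-1+TNFα replicate 2, 11 were lower. Of 42 lysosomal genes 9 were higher, among them the cathepsin gene Ctsb (0.77 ± 0.12, adjusted p = 0.00112) and the transcription factor gene Mitf (1.19 ± 0.13, adjusted p = 1.18e-04), and 3 were lower. The called share of lysosomal genes was 28.6%. Without TMP195+TNFα replicate 1 or TPCA-1+TNFα replicate 4, 5 lysosomal genes were called higher. The mannose receptor gene Mrc1, a marker of alternative activation, was at 46.3, 41.6, 41.7 and 32.3 CPM against 20.7, 8.15, 20.5 and 11.3 CPM (1.36 ± 0.27, adjusted p = 0.00427). Of the complement and Fc receptor genes, 2 were higher and 6 lower of 22, including the neonatal Fc receptor gene Fcgrt (-1.09 ± 0.19, adjusted p = 0.00194). The called share of that list was 36.4%.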
